A study of Mus musculus with 14 samples.

Results

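Peaks at 4 mouse tumour suppressor genes, Cdkn2a, Cdkn2b, Cdkn1a and Trp53, were examined in 12 ChIP-seq peak lists. The members are all peaks that overlap 3 windows of the mm9 genome: chr4:88910000-88970000, which holds Cdkn2a and Cdkn2b, chr17:29220000-29245000, which holds Cdkn1a, and chr11:69388000-69410000, which holds Trp53. The windows held 133 of the 557412 peaks of all lists. Merging the peaks of each antibody wherever they shared at least 1 bp gave 39 regions in the windows (10 of H3K4me3 and 29 of FLAG) of 160527 in all. Within the windows, membership went by position alone, while the windows themselves were chosen with earlier results of these data known.

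The lists come from neurospheres, floating cultures of neural stem cells, grown from mouse hindbrain at embryonic day 15.5 under neural precursor conditions. K27M-Tag cultures (n = 3) had the genotype Nestin-cre; H3f3aLSL-K27M-Tag/+, and WT-Tag cultures (n = 3) had the genotype Nestin-cre; H3f3aLSL-WT-Tag/+. Every culture therefore carried Nestin-cre, which drives recombination in neural progenitors, and 1 tagged copy of H3f3a, which encodes histone H3.3, the variant laid down outside replication. In K27M-Tag that copy encodes the K27M form, in which methionine replaces lysine 27, and in WT-Tag the unchanged form. Untagged or Cre-free cultures were not analysed here, so FLAG peaks have no background culture. Each culture gave 1 list for H3K4me3, a mark of active and poised promoters, and 1 for FLAG, the tag on the H3.3. All cultures were female except WT-Tag replicate 3, which was male, and for FLAG and H3K4me3 alike several immunoprecipitations were pooled where material was short. The labels name separate cultures by number and do not say whether they came from different embryos, so the p-values measure the spread between these cultures. The files hold peaks without gene names, so the labelled cell type was not checked against marker genes.

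The 4 genes restrain the cell cycle. Cdkn2a encodes p16INK4A, which inhibits the cyclin D kinases, and from another first exon and reading frame p19ARF, which blocks Mdm2 and so stabilises p53. Cdkn2b encodes p15INK4B, a relative of p16INK4A. Cdkn1a encodes p21, an inhibitor of cyclin-dependent kinases and a classic transcriptional target of p53, which Trp53 encodes. The Cdkn2a-Cdkn2b locus is a textbook target of Polycomb repression, in which the PRC2 enzyme methylates lysine 27 of H3, and H3.3 carrying K27M inhibits that enzyme. Promoters rich in CpG commonly carry H3K4me3 in stem cells whether or not the gene is highly expressed.

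The sequences just upstream of the annotated starts are shown because they differ widely in CpG content. They are the 200 bases before each start, 5′ to 3′ on the gene's strand, from RefSeq (build GRCm38.p6). All 4 genes matched by symbol, Cdkn2a and Cdkn1a with 2 starts each. Capitals mark the GC box GGGCGG on either strand, except in Cdkn1a start 1, where they mark a pair of adjoining p53 half-sites.
Cdkn2a start 1: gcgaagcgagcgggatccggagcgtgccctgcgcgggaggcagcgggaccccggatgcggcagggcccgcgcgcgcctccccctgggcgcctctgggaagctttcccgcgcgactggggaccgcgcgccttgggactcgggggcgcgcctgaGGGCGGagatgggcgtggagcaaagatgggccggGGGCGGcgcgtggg
Cdkn2b: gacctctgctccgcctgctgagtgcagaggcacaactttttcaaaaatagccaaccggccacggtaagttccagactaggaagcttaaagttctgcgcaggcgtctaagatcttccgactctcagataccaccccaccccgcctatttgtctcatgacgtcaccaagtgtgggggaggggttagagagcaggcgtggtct
Cdkn1a start 1: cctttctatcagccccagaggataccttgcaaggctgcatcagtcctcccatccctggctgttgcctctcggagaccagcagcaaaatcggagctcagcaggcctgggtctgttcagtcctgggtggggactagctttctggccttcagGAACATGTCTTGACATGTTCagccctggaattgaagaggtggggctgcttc
Cdkn1a start 2: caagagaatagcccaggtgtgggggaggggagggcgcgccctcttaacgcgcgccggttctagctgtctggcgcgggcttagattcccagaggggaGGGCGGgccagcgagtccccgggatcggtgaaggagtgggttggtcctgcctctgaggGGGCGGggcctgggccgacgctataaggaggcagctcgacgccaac
Trp53: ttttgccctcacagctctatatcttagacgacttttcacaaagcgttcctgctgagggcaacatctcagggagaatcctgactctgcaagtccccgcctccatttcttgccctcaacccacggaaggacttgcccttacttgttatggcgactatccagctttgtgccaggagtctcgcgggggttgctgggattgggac
Cdkn2a start 1 held 30 CpG and 78.5% G or C, and 97.4% of 32851 mouse promoters of the same length held fewer CpG. Cdkn1a start 2 followed with 17 CpG, Cdkn2b held 9, Trp53 held 7, Cdkn2a start 2 (not shown) held 4 and Cdkn1a start 1 held 2, against a median of 5 over all promoters. The GC box occurred in 2 copies in Cdkn2a start 1 and in 2 copies in Cdkn1a start 2, and 31.0% of all promoters held at least 1. Searching both strands for CCAAT found 1 copy in Trp53 and none in the others, against 29.3% of all promoters. TATAAA was found in none of the 6 sequences, against 9.96% of all promoters. The p53 half-site pair, searched with at most 1 mismatch, stood 51 to 32 bases before Cdkn1a start 1 with 1 mismatch, and 21 of all promoters (0.0639%) held such a pair. A match describes these letters and does not show a bound site. The peaks are on mm9 and the promoters on another build, so no peak was assigned to a start. Where a region is named by a gene below, the name stands for the window and not for that gene's promoter. By gene order alone, Cdkn2a precedes Cdkn2b along the chromosome with both on the minus strand, Cdkn1a lies between Trp53cor1 and Rab44, and Trp53 lies between Wrap53 and Atp1b2.

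Over the whole series the H3K4me3 lists held 35366 to 38720 peaks in K27M-Tag and 31932 to 32504 in WT-Tag, and the FLAG lists held 57589 to 88285 and 32763 to 47293. The K27M-Tag lists were thus longer for both antibodies. A list ends where its own peaks reach the caller's limit, so covered bases move with the length of the list. The read depth of the libraries is not given in the files. The background coverage recovered from each list, a stand-in for depth, was 2.774 to 3.502 fragments deep for H3K4me3 and 3.09 to 3.604 for FLAG and overlapped between genotypes. Drosophila chromatin was added to the H3K4me3 samples as a spike-in, but the lists carry no factor from it and no value here is scaled by it. FLAG values of the windows are also given with every FLAG and H3K4me3 list limited to the length of the shortest list of its antibody, termed equal list lengths. The same was done for the H3K4me3 lengths of the Cdkn2a-Cdkn2b and Cdkn1a windows.

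The Cdkn2a-Cdkn2b window carried more called H3K4me3 in every K27M-Tag culture than in any WT-Tag culture. H3K4me3 peaks covered 7404, 6931 and 7054 bp in K27M-Tag replicates 1 to 3 and 5099, 6277 and 5013 bp in WT-Tag replicates 1 to 3. The means were 7130 ± 245 bp and 5463 ± 706 bp (SD, n = 3 each), a ratio of 1.31, and the ranges did not overlap. The difference had p = 0.1 in a two-sided exact permutation test, the smallest p possible for 3 cultures against 3, and 0.18 after Benjamini-Hochberg adjustment over the 9 window values. No window value could therefore pass 0.05. At equal list lengths H3K4me3 covered 7404, 6931 and 6333 bp in K27M-Tag and 5099, 6277 and 5013 bp in WT-Tag. The ranges stayed apart, now narrowly, and the mean difference fell from 1667 to 1426 bp.

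The window held 5 H3K4me3 regions, of which 4 had a peak in all 6 lists. Over all 22592 H3K4me3 regions present in all 6 lists, limma on log2 covered bases called 8.11% at an adjusted p under 0.05, 7.56% wider in K27M-Tag and 0.549% narrower. In the 3 windows 2 of the 6 regions tested were wider by that rule and none was narrower, and both lie at the high-coordinate end of the Cdkn2a-Cdkn2b window. The median log2 change was 0.14 for the 6 regions and 0.14 for all regions, so the typical region was wider in K27M-Tag by that amount and single changes are read against it.

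The first of these, region 5 (chr4:88953982-88957657), is the widest of the window. It covered 3676, 3224 and 3323 bp in K27M-Tag and 1965, 2652 and 1816 bp in WT-Tag, 3408 ± 238 against 2144 ± 446 bp (SD, n = 3 each). Every K27M-Tag value lay above every WT-Tag value. The log2 change in breadth was 0.69 (SE 0.14, limma adjusted p = 0.0335). The added length lay mostly on the low-coordinate side. Relative to the region's centre, the first called base stood at -1837, -1531 and -1624 bp in the K27M-Tag cultures and at -1069, -1038 and -97 bp in the WT-Tag cultures, without overlap. The last called base lay 1692 to 1838 bp after the centre in K27M-Tag and 1613 to 1718 bp in WT-Tag, which overlap. The region thus reached further toward lower coordinates in K27M-Tag. The summit stood at the same place in every culture, 884 to 936 bp after the centre.

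Summit height, the pileup of fragments at the summit divided by the list's background coverage, was 76.0, 88.7 and 64.8 times background at region 5 in K27M-Tag and 47.1, 73.9 and 71.6 times in WT-Tag. These ranges overlapped, and the log2 change was 0.27 (limma adjusted p = 0.282) against a median of 0.33 over all regions. The breadth call of region 5 was close to the threshold. It was lost when any culture but WT-Tag replicate 2 was left out (limma adjusted p = 0.0670 to 0.128, with log2 changes of 0.58 to 0.72) and when each list was centred on its own median (log2 0.55, adjusted p = 0.0609). It was also lost with the replicate number as a block (adjusted p = 0.0591), with the best 50% of peaks (0.0663) and with peaks joined across gaps of 1000 bp (0.106), all by limma.

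Region 4 (chr4:88949219-88950057), between the larger regions, is a small one. It covered 590, 668 and 680 bp in K27M-Tag and 223, 222 and 210 bp in WT-Tag, 646 ± 48.9 against 218 ± 7.23 bp (SD, n = 3 each), a ratio of 2.96. All 3 K27M-Tag values were far above the WT-Tag values, whose peaks were near the shortest that the caller wrote. At the tallest peak the caller's local background, divided by the list's background coverage, was 1.06, 1.26 and 1.26 in K27M-Tag. In WT-Tag it was 1.51, 1.51 and 1.46, without overlap. Its part in the called breadth was not tested. The log2 change was 1.56 (SE 0.16, limma adjusted p = 0.0074). Summit height was 15.3, 10.5 and 8.85 times background in K27M-Tag and 6.58, 7.94 and 7.72 times in WT-Tag, again without overlap (log2 0.60, SE 0.22, limma adjusted p just under 0.05), and 10.5% of all regions were called higher and 0.465% lower by that test. In K27M-Tag replicates 2 and 3 the region consisted of 2 peaks that the single peak of replicate 1 bridged. Without K27M-Tag replicate 1 the merged region falls apart, and for the piece compared the log2 change in breadth was 0.89 and the call was lost (limma adjusted p = 0.125). The height call was lost once each list was centred (log2 0.21, limma adjusted p = 0.615), with the replicate number as a block (0.0564) and without any 1 of 4 cultures, K27M-Tag replicates 1 and 2 and WT-Tag replicates 1 and 3 (0.114 to 0.433).

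Region 3 (chr4:88939966-88942671) was nearly as broad as region 5 and did not pass the test. It covered 2671, 2673 and 2532 bp in K27M-Tag and 2332, 2414 and 2350 bp in WT-Tag, so the ranges did not overlap, and the log2 difference was 0.15 (SE 0.04, limma adjusted p = 0.0683), close to the median of all regions. Its first called base stood at -1352 to -1277 bp from the centre over the 6 cultures. Its last called base stood 1323, 1322 and 1353 bp after the centre in K27M-Tag and 979, 1072 and 1072 bp in WT-Tag. Summit height was 71.8, 81.5 and 60.5 against 46.8, 68.0 and 55.9 times background (log2 0.33, limma adjusted p = 0.221). The local background that the caller used at the summit of the tallest peak was 3.11 to 3.54 in K27M-Tag and 5.70 to 5.72 in WT-Tag. The authors' deposited fold enrichment, which divides by that background, was accordingly 47.3 to 55.2 in K27M-Tag and 20.2 to 29.5 in WT-Tag, a wider gap than that of the pileups.

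Region 1 (chr4:88927746-88928562), the one nearest the low-coordinate end, leaned the other way. It covered 467, 366 and 519 bp in K27M-Tag and 579, 741 and 637 bp in WT-Tag. All 3 WT-Tag values were above the K27M-Tag values, but the log2 difference of -0.54 (SE 0.18) did not pass the test (limma adjusted p = 0.103). Summit height was 8.11, 7.93 and 6.85 times background in K27M-Tag and 8.66, 10.4 and 13.9 times in WT-Tag (log2 -0.50, limma adjusted p = 0.108). With each list centred the height difference was -0.90 and passed (limma adjusted p = 0.0093). Of all 22592 regions, 7.23% were called by height with the lists centred, 490 higher and 1143 lower. Region 2 (chr4:88932713-88932960) was a peak of 248 bp in WT-Tag replicate 2 alone. Among the 22592 regions, region 5 was the 3140th broadest, region 3 the 4188th, and regions 1 and 4 were broader than 12.6% and 6.46% of regions.

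**Figure D1:**
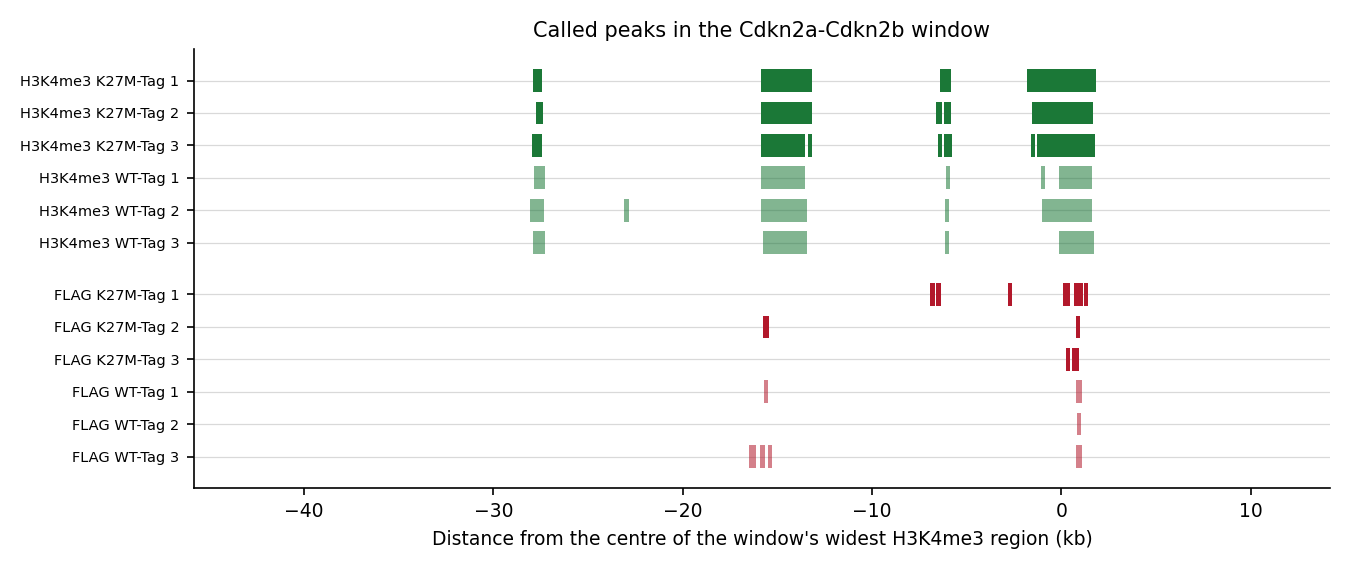
Called peaks in the Cdkn2a-Cdkn2b window, with 1 row per list (green H3K4me3, red FLAG, paler for WT-Tag) and distance from the centre of region 5 in kb on the x axis. The H3K4me3 block at 0 reaches further left in K27M-Tag than in WT-Tag, and the small block at about -6 kb is wider in K27M-Tag.

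Called FLAG overlapped between the genotypes in this window. FLAG peaks covered 1776, 531 and 592 bp in K27M-Tag and 512, 207 and 1112 bp in WT-Tag, 966 ± 702 against 610 ± 460 bp (SD, n = 3 each), with overlapping ranges (exact permutation p = 0.5, adjusted 0.5625). The share of H3K4me3 bases under a FLAG peak of the same culture was 15.2%, 7.66% and 8.39% in the K27M-Tag cultures and 10.0%, 3.30% and 12.5% in the WT-Tag cultures (exact permutation p = 0.6). Both differences turned to the opposite sign without K27M-Tag replicate 1 (-48.8 bp and -0.582 percentage points) and at equal list lengths (-121 bp and -1.69 percentage points). Leaving out WT-Tag replicate 2 turned the share as well, to -0.862 percentage points.

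Among the 8 FLAG regions here, 5 were in K27M-Tag lists alone, 4 of them only in replicate 1, and 1 was in WT-Tag replicate 3 alone. The K27M-Tag FLAG lists were longer, and the share of such regions over all FLAG regions was not computed. These counts are therefore not read as a difference between the genotypes. FLAG region 7 (chr4:88956382-88956959) was in all 6 lists and lay inside H3K4me3 region 5, over its summit side. It covered 476, 217 and 386 bp in K27M-Tag and 305, 207 and 292 bp in WT-Tag (log2 0.37, SE 0.35, limma adjusted p = 0.403). Its summit height was 7.91, 6.59 and 6.38 times background in K27M-Tag and 8.74, 6.38 and 7.81 times in WT-Tag (log2 -0.13, limma adjusted p = 0.603). Over all 11980 FLAG regions in 6 lists, 43.8% were called by breadth (43.1% wider in K27M-Tag, 0.618% narrower) and 39.5% by height (37.5% higher, 2.03% lower), and neither of the 2 FLAG regions of the windows in all 6 lists was among them. FLAG bases inside H3K4me3 region 5 came to 1031, 217 and 592 bp in K27M-Tag and 305, 207 and 292 bp in WT-Tag (p = 0.3, exact permutation test). Their means, 613 and 268 bp, compare with medians of 266 and 0 bp over all 22592 H3K4me3 regions, of which 14.1% had a FLAG peak in all 6 cultures as region 5 did. None of them lay in the part of region 5 that was called in K27M-Tag alone: FLAG peaks began 111, 755 and 255 bp after the centre in K27M-Tag. H3K4me3 region 1 held no FLAG peak in any culture, region 3 held 314 bp in K27M-Tag replicate 2, 207 bp in WT-Tag replicate 1 and 409 bp in WT-Tag replicate 3, and region 4 held 265 bp in K27M-Tag replicate 1 alone. Regions without a FLAG peak in any culture made up 31.7% of the 22592.

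The Cdkn1a window held one of the broadest and tallest H3K4me3 regions of the series and a FLAG signal that was called within it almost only in K27M-Tag. H3K4me3 peaks in the window covered 6963, 6707 and 7985 bp in K27M-Tag and 6502, 6111 and 6319 bp in WT-Tag, 7218 ± 676 against 6311 ± 196 bp (SD, n = 3 each). The ranges did not overlap (ratio 1.14, exact permutation p = 0.1, adjusted 0.18). At equal list lengths they stayed apart and the mean difference fell from 908 to 608 bp. Nearly all of the called H3K4me3 was region 2 (chr17:29227495-29234579), which covered 6963, 6707 and 7085 bp in K27M-Tag and 6502, 6111 and 6319 bp in WT-Tag. The other H3K4me3 regions of the window, chr17:29226978-29227360 and chr17:29235276-29235792, flanked it and were called only in K27M-Tag replicate 3, the culture with the longest list. By mean breadth region 2 was the 129th of 22592, broader than 99.4% of regions, and by summit height the 35th.

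Its log2 change in breadth, 0.13 (SE 0.04, limma adjusted p = 0.0849), was that of the typical region, and relative to each list's median it was -0.0065 (adjusted p = 0.951). The last called base lay 3284 to 3542 bp after the region's centre in K27M-Tag and 3040 to 3080 bp in WT-Tag, without overlap, while the first called base stood at -3542 to -3331 bp and overlapped. Summit height was 103, 120 and 91.9 times background in K27M-Tag and 70.0, 103 and 89.5 times in WT-Tag, with overlapping ranges. Within its own list the region's best peak ranked by p at 61, 8 and 10 in K27M-Tag and at 546, 119 and 219 in WT-Tag, above at least 98.3% of peaks in every list. The ranks come from lists of different lengths, and p depends on the local background, which was 3.11 to 3.99 at this summit in K27M-Tag and 5.19 to 5.82 in WT-Tag. The authors' deposited fold enrichment was 65.6 to 81.5 in K27M-Tag and 32.8 to 48.0 in WT-Tag. The summit stood -94 to -61 bp from the centre in all 6 cultures.

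FLAG peaks in the Cdkn1a window covered 2203, 1772 and 2619 bp in K27M-Tag and 202, 710 and 193 bp in WT-Tag. The means were 2198 ± 424 and 368 ± 296 bp (SD, n = 3 each), a ratio of 5.97, without overlap of the ranges (exact permutation p = 0.1, adjusted 0.18). The difference lay inside the H3K4me3 region. There FLAG covered 1950, 1530 and 2013 bp in K27M-Tag and 202, 0 and 0 bp in WT-Tag. Outside H3K4me3 it covered 253, 242 and 606 bp in K27M-Tag and 0, 710 and 193 bp in WT-Tag, which overlap (exact permutation p = 0.8). The split into bases inside and outside H3K4me3 was chosen after the values of the windows were seen. FLAG lay under 28.0%, 22.8% and 25.2% of the H3K4me3 bases in K27M-Tag and under 3.11%, 0% and 0% in WT-Tag (25.3 ± 2.60 against 1.04 ± 1.79, SD, n = 3 each, exact permutation p = 0.1, adjusted 0.18). At equal list lengths the shares were 15.7%, 22.8% and 0% in the K27M-Tag cultures and 3.11%, 0% and 0% in the WT-Tag cultures, so the ranges overlapped and the mean difference fell from 24.3 to 11.8 percentage points (exact permutation p = 0.4).

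Such a gap was common in the series. FLAG bases inside an H3K4me3 region were higher in every K27M-Tag culture than in every WT-Tag culture at 40.7% of the 22592 regions and lower at 0.0354%, with median values of 266 and 0 bp. The difference at Cdkn1a was larger than at 96.8% of regions, in bases, and the region was itself broader than 99.4% of them. The gap in covered bases also depended on the list lengths. When every FLAG list was limited to its 32763 best peaks, the length of the shortest list, FLAG in the Cdkn1a window covered 1094, 1530 and 0 bp in K27M-Tag and 202, 477 and 193 bp in WT-Tag. K27M-Tag replicate 3, with 88285 peaks before that limit, then had none, the ranges overlapped, and the mean difference fell from 1830 to 584 bp (exact permutation p = 0.4).

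The FLAG peaks within the Cdkn1a H3K4me3 region stood on its low-coordinate side. Relative to its centre they ran from -2800 to -435 bp, from -2569 to -492 bp and from -2656 to 266 bp in K27M-Tag replicates 1 to 3. FLAG region 3 (chr17:29228944-29230602), the largest, covered 1392, 1139 and 1112 bp in K27M-Tag and had no peak in WT-Tag. The best of its peaks by p exceeded 84.3%, 81.4% and 51.7% of the peaks of the list. Of all 117816 merged FLAG regions, 9.89% had a peak in the 3 K27M-Tag lists and in no WT-Tag list, as this one did. FLAG region 2 (chr17:29228237-29228858) beside it covered 558, 391 and 425 bp in K27M-Tag and 202 bp in WT-Tag replicate 1, the shortest of the FLAG lists. FLAG region 7 (chr17:29237322-29238044), outside H3K4me3, covered 253, 242 and 351 bp in K27M-Tag and 477 bp in WT-Tag replicate 2. The other 4 FLAG regions of the window were each in 1 list, 2 of them in WT-Tag and 2 in K27M-Tag.

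In the Trp53 window the FLAG share of H3K4me3 separated the genotypes and the H3K4me3 length did not. H3K4me3 peaks covered 5695, 5124 and 5349 bp in K27M-Tag and 5092, 5201 and 5313 bp in WT-Tag, 5389 ± 288 against 5202 ± 111 bp (SD, n = 3 each), with overlapping ranges (exact permutation p = 0.4, adjusted 0.514). Region 1 (chr11:69390653-69396393) held all of it but a peak of 230 bp in WT-Tag replicate 1 at chr11:69406107-69406336. It covered 5695, 5124 and 5349 bp in K27M-Tag and 4862, 5201 and 5313 bp in WT-Tag (log2 0.07, SE 0.05, limma adjusted p = 0.362), and was the 330th broadest of 22592 regions and the 3512th tallest. Summit height was 79.6, 90.5 and 70.2 times background in K27M-Tag and 55.8, 75.9 and 62.1 times in WT-Tag, with overlapping ranges. The peak that holds this summit stood above 81.3%, 82.9% and 85.5% of its list by p in the K27M-Tag cultures and above 96.2%, 95.7% and 90.3% in the WT-Tag cultures. The local background there was 6.64, 5.44 and 5.89 in the K27M-Tag cultures and 2.89, 2.90 and 3.24 in the WT-Tag cultures, without overlap, and p depends on it.

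FLAG peaks in the Trp53 window covered 5177, 3130 and 5295 bp in K27M-Tag and 1664, 4184 and 3036 bp in WT-Tag, 4534 ± 1217 against 2961 ± 1262 bp (SD, n = 3 each), with overlapping ranges (exact permutation p = 0.2, adjusted 0.3). At equal list lengths the mean difference fell from 1573 to 506 bp. The total joined unlike parts. Inside H3K4me3, FLAG covered 2112, 966 and 2583 bp in K27M-Tag and 198, 208 and 193 bp in WT-Tag, a ratio of 9.45 without overlap (exact permutation p = 0.1, adjusted 0.3 over the 6 values of this split). The 198 bp of WT-Tag replicate 1 lay in its separate H3K4me3 peak of 230 bp, far from region 1. Region 1 held no FLAG in that culture, and its share under FLAG was 0%, 4.00% and 3.63% in WT-Tag. Outside H3K4me3, FLAG covered 3065, 2164 and 2712 bp in K27M-Tag and 1466, 3976 and 2843 bp in WT-Tag (exact permutation p = 0.9). The share of H3K4me3 bases under FLAG was 37.1%, 18.9% and 48.3% in the K27M-Tag cultures and 3.89%, 4.00% and 3.63% in the WT-Tag cultures (34.7 ± 14.9 against 3.84 ± 0.188, SD, n = 3 each, exact permutation p = 0.1, adjusted 0.18). At equal list lengths the shares were 33.3%, 18.9% and 10.9% in the K27M-Tag cultures and 3.89%, 4.00% and 0% in the WT-Tag cultures, so the groups stayed apart and the mean difference fell from 30.9 to 18.4 percentage points. The difference in FLAG bases inside region 1 was larger than at 96.7% of all regions, and the region was itself broader than 98.5% of them. As given above, 40.7% of regions had more FLAG bases in every K27M-Tag culture than in every WT-Tag culture.

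Within the H3K4me3 region of Trp53, FLAG region 4 (chr11:69393157-69393753) covered 446, 551 and 585 bp in K27M-Tag and had no peak in WT-Tag, a pattern found in the 9.89% of FLAG regions given above. Its single peak in each list exceeded 88.0%, 81.4% and 78.0% of the peaks of that list. FLAG region 5 (chr11:69394102-69394878) covered 665, 415 and 777 bp in K27M-Tag, 208 and 193 bp in WT-Tag replicates 2 and 3, and none in WT-Tag replicate 1. FLAG regions 2, 3 and 6, also inside H3K4me3, were called in K27M-Tag replicates 1 and 3, the cultures with the longer FLAG lists, and in no other.

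The broadest FLAG region of the 3 windows lay at the other end of the Trp53 window, toward Atp1b2, and was shared by both genotypes. FLAG region 12 (chr11:69404099-69407452) covered 2335, 2164 and 2417 bp in K27M-Tag and 1463, 2689 and 2147 bp in WT-Tag (log2 0.18, SE 0.24, limma adjusted p = 0.55). Summit height was 9.18, 10.2 and 9.99 times background in K27M-Tag and 8.41, 11.3 and 11.4 times in WT-Tag (log2 -0.07, limma adjusted p = 0.761). Its best peak exceeded 87.1% to 95.5% of the peaks of its list in K27M-Tag and 95.1% to 99.5% in WT-Tag. It was broader than 93.3% of the 11980 FLAG regions in all 6 lists, whose median log2 change in breadth was 0.81. Read against the median of each list, region 12 was narrower in K27M-Tag by 0.73 on the log2 scale (limma adjusted p = 0.0148), and 11.5% of all FLAG regions tested were called narrower with the lists centred in that way. It held no H3K4me3 peak except the 230 bp in WT-Tag replicate 1. Of the 14 FLAG regions of the Trp53 window, 6 were in K27M-Tag lists alone, 4 in WT-Tag lists alone and 4 in both. The K27M-Tag lists were longer and the matching shares over all FLAG regions were not computed. These counts are therefore not read as a difference between the genotypes.

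**Figure D2:**
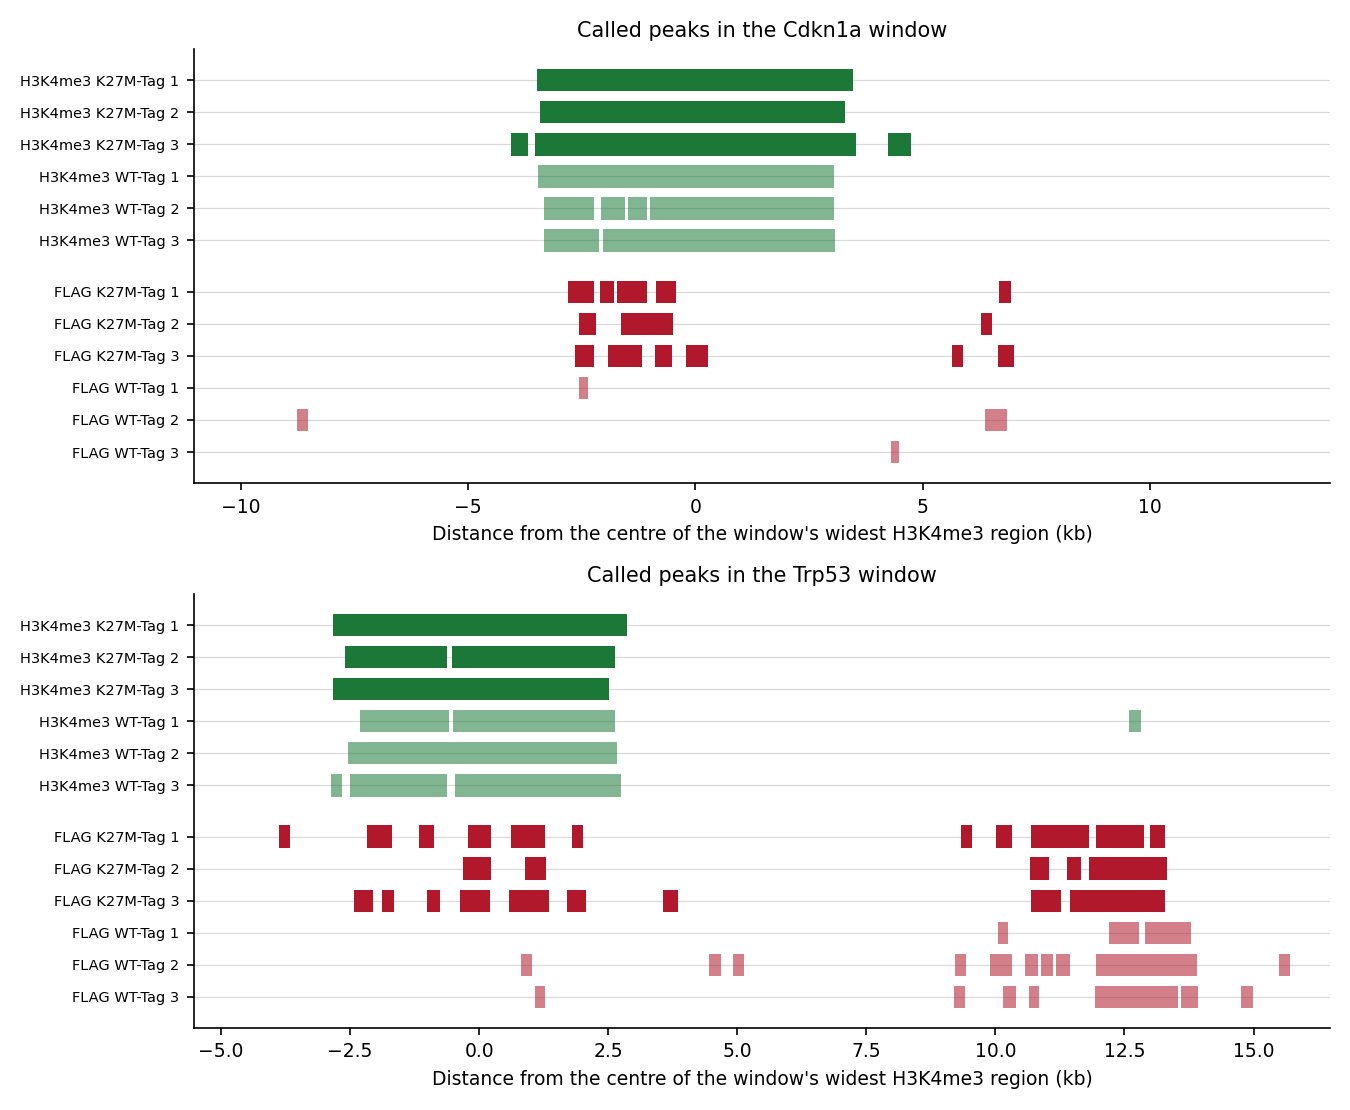
Called peaks in the Cdkn1a and Trp53 windows, drawn as in the map of the Cdkn2a-Cdkn2b window, with distance from the centre of the widest H3K4me3 region in kb. FLAG peaks within the H3K4me3 blocks are mostly K27M-Tag rows, and the FLAG cluster at 9 to 14 kb in the Trp53 window appears in all 6 cultures.

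**Figure D3:**
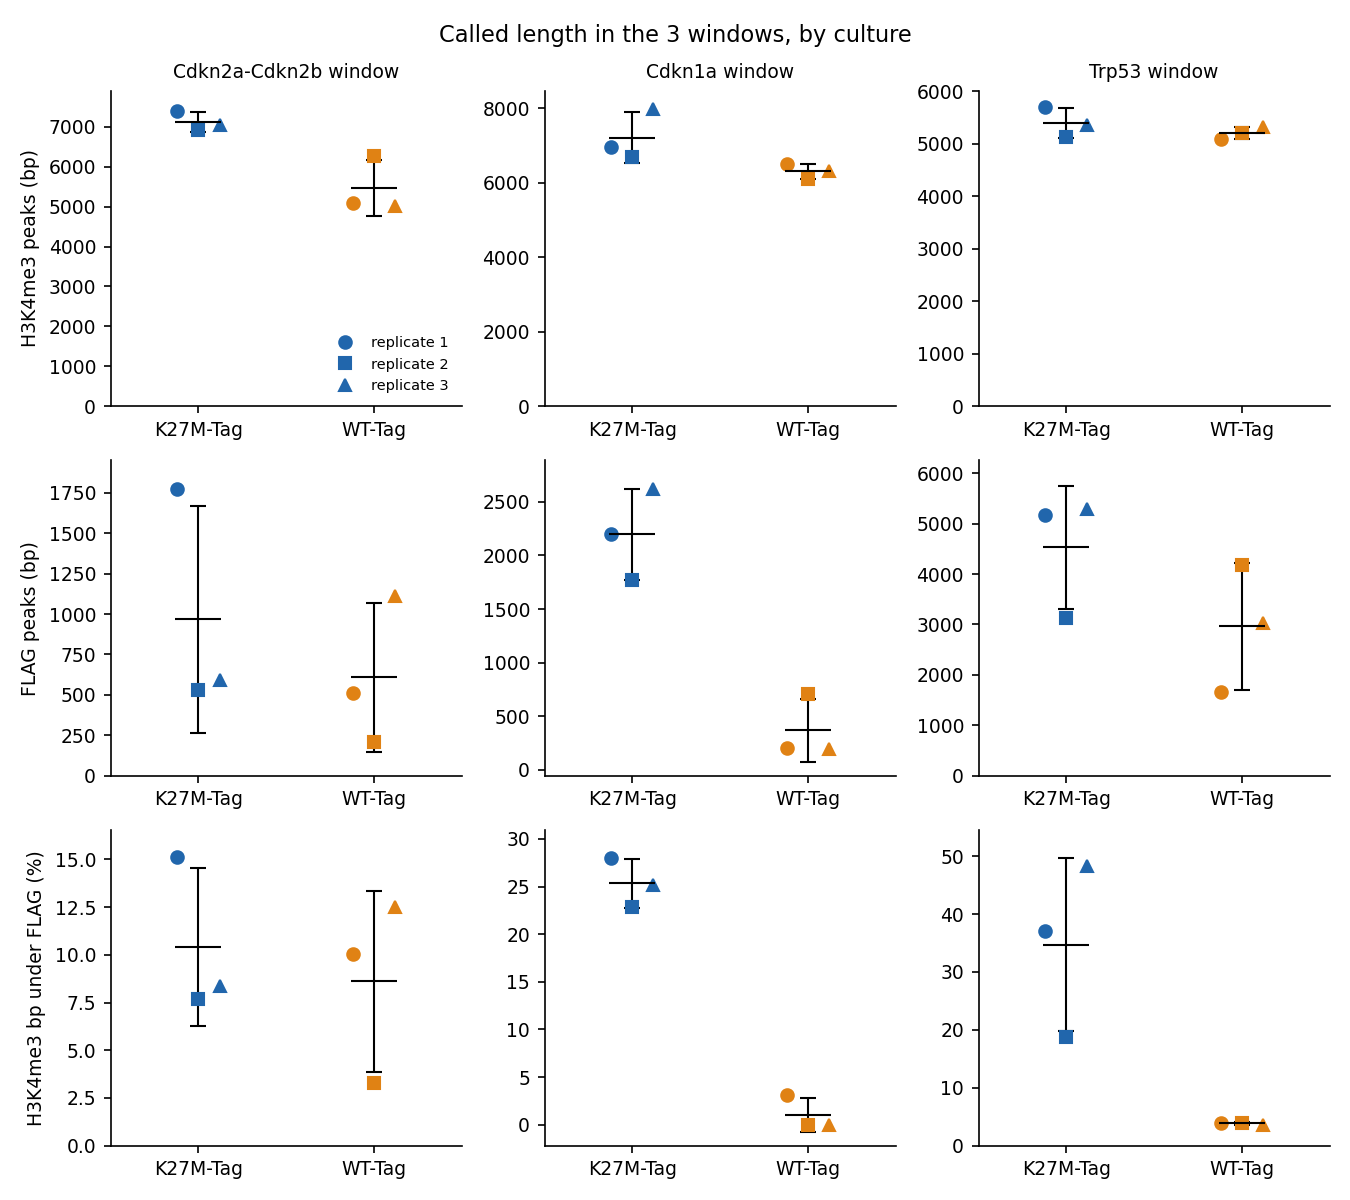
Bases under H3K4me3 peaks, bases under FLAG peaks and percent of H3K4me3 bases under FLAG in each window, with 1 point per culture and the mean and SD (n = 3) as bars. Ranges are apart for H3K4me3 in the Cdkn2a-Cdkn2b and Cdkn1a windows, for FLAG in the Cdkn1a window and for the share in the Cdkn1a and Trp53 windows.

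Set side by side, the windows separated on different measures. H3K4me3 length differed without overlap in the Cdkn2a-Cdkn2b and Cdkn1a windows and overlapped in the Trp53 window. The FLAG share of H3K4me3 differed without overlap in the Cdkn1a and Trp53 windows and overlapped in the Cdkn2a-Cdkn2b window. At equal list lengths the share separated the genotypes in the Trp53 window alone of the 3. Differences between the windows were not tested. Over all 22592 regions, H3K4me3 breadth was higher in every K27M-Tag culture at 37.9% and lower in every one at 2.06%. Of the 6 regions of the windows tested, 4 were higher in every K27M-Tag culture, 1 was lower and 1 overlapped. By list the windows held 6, 8 and 11 H3K4me3 peaks in the K27M-Tag cultures and 9, 10 and 9 in the WT-Tag cultures. The H3K4me3 region of Cdkn1a was 1 unbroken peak in the K27M-Tag cultures and 1, 4 and 2 peaks in WT-Tag. FLAG peaks numbered 22, 10 and 17 in the K27M-Tag cultures and 6, 13 and 12 in the WT-Tag cultures.

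**Figure D4:**
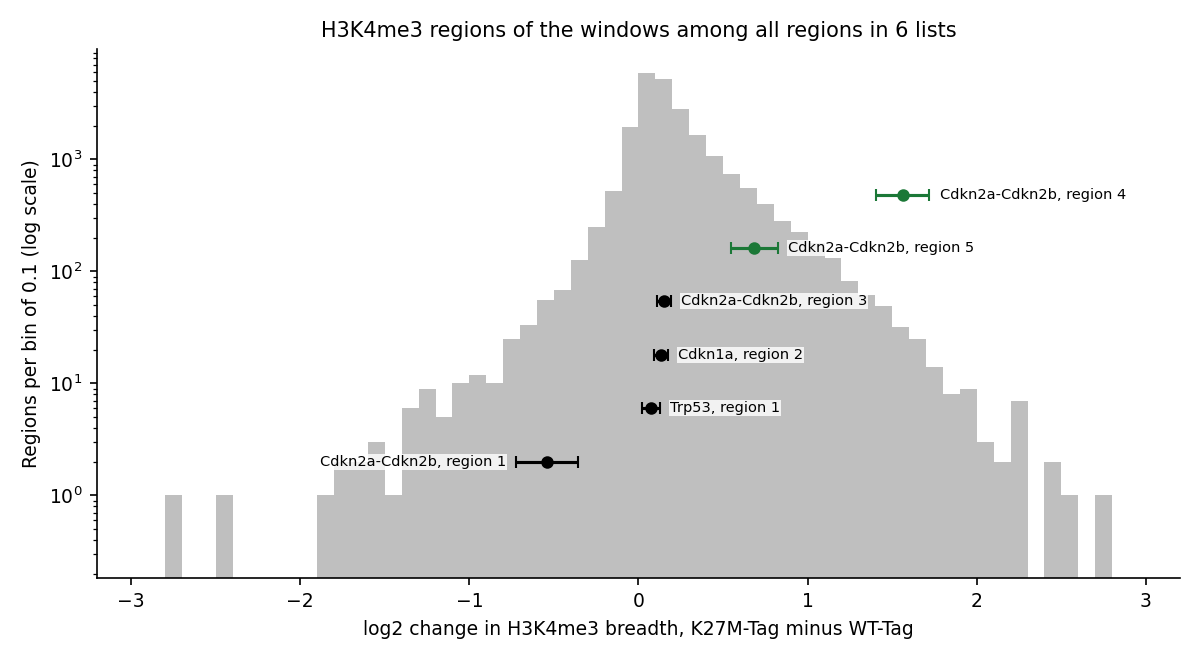
Grey bars count all 22592 H3K4me3 regions by log2 change in breadth, K27M-Tag minus WT-Tag (log y axis), and points with SE bars mark the 6 regions of the windows at heights chosen for legibility. Regions 4 and 5 of the Cdkn2a-Cdkn2b window (green, limma adjusted p under 0.05) stand at 1.56 and 0.69, and the Cdkn1a and Trp53 regions at 0.13 and 0.07.

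The regions most like each window's widest H3K4me3 region were sought over 12 values among 22586 regions outside the windows. The values were the log2 H3K4me3 bases and log2 FLAG bases inside the region in the 6 cultures. Before the log, 200 bp was added to each. For region 5 of the Cdkn2a-Cdkn2b window the nearest was chr13:42144255-42147076 at a Euclidean distance of 1.03, against a median of 4.25. There H3K4me3 averaged 2667 bp in K27M-Tag and 2474 bp in WT-Tag, a smaller gap than 3408 against 2144 bp at region 5. The regions in places 2 and 3 averaged 2707 and 2769 bp in K27M-Tag and 2602 and 2628 bp in WT-Tag. For Cdkn1a the nearest was chr2:103404948-103410733 at a distance of 0.718 (median 7.07). FLAG inside H3K4me3 averaged 1643 bp there in K27M-Tag and 61.7 bp in WT-Tag. For Trp53 it was chr8:11554439-11559851 at a distance of 0.596 (median 6.55), with FLAG means of 1894 and 188 bp. The corresponding FLAG means were 1831 and 67.3 bp at Cdkn1a and 1887 and 134 bp at Trp53. The distance describes likeness in these values and says nothing of function.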

How the data were processed

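Peaks of 12 ChIP-seq libraries (6 neurosphere cultures, 2 antibodies) were analysed, with 1 list per library and groups from the labels. The 2 input samples, by their titles 1 composite per genotype, were not analysed. Had they served as controls, an effect of the control could not be told apart from one of genotype. BWA 0.7.17-r1188, MACS2 2.2.7.1 and bedtools 2.29.2 and the builds mm9 and dm6 are named, per the submitters' processing notes, without their role, and whether replicates shared a control is not given in the sources used here. The deposited score of a peak, its deposited fold enrichment (a ratio to local background) and its deposited −log10 p and −log10 q are the authors' values and were used to rank and describe peaks within a list. The lowest deposited −log10 q was 2.0 to 2.05 in every list.

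From the deposited fold and p, the summit pileup and local background of each peak were recovered as the pair that gives both, where the fold equals (pileup + 1) / (background + 1) and p is a Poisson tail (relative error under 0.0001, 100% of peaks). This rests on the form the values obey. Summit height is that pileup over the list's most common background, not the deposited fold. Peaks sharing 1 bp over the 6 lists of an antibody were merged. Regions in all 6 lists were tested with limma 3.58.1 (R 4.3.3, trend, Benjamini-Hochberg over all regions, threshold 0.05) on log2 covered bp and log2 height, and window values with two-sided exact permutation tests. The code was tested on simulated data. Regions in fewer than 6 lists (4 of H3K4me3 and 27 of FLAG in the windows) could not enter limma and are given by list. All member regions are described or counted, those in all 6 lists in full. The members, windows and tests were chosen with earlier results of these data known. Gene lists of the p53 and RB pathways, and markers of the cell type, were not used here, since the lists carry no gene names. Same-numbered cultures of the genotypes had correlated deviations of -0.038 to 0.180, so the numbers were not taken as pairs. Alternatives were the best 50% of peaks, equal list lengths, windows longer by 5000 bp, joining across 1000 bp, centring each list, a replicate block and leaving out each culture. Intervals for counting error were not computed, since no read totals are given.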

Additional observations from a re-analysis of the deposited data

How the results depend on the processing

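Over 9 window values and 11 alternatives each, 93 of 99 kept their direction. The 6 that turned all belong to FLAG in the Cdkn2a-Cdkn2b window: its covered bp at equal list lengths (-121) and without K27M-Tag replicate 1 (-48.8; 607 at the other end of the range over left-out cultures), and its share of H3K4me3 with the best 50% of peaks (-0.672), at equal lengths (-1.69), without K27M-Tag replicate 1 (-0.582) and with WT-Tag replicate 2 left out (-0.862, range up to 3.73). A called length depends on depth, which the lists do not give.

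Counts of called regions moved by over 1.5 times as follows. H3K4me3 breadth, 1833 calls, gave 637 with the best 50% of peaks, 700 with lists centred (444 wider, 256 narrower), 1002 with peaks joined and 76 to 2548 with a culture left out, lowest without K27M-Tag replicate 1. H3K4me3 height, 2475 calls, gave 274, 1633 with lists centred (490 higher, 1143 lower) and 546 to 5623 with a culture left out. FLAG breadth, 5243 calls, gave 2545, 2351 with lists centred (974 wider, 1377 narrower) and 2422 to 6410 with a culture left out. FLAG height, 4737 calls, gave 2656, 2553 with lists centred (1078 higher, 1475 lower) and 3114 to 5576. The cause was not tested.

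Among the single regions, the centred lists turned breadth at Cdkn1a (-0.0065), Trp53 (-0.067), FLAG region 7 (-0.53) and FLAG region 12 (-0.73), and height at H3K4me3 regions 3 (-0.067) and 5 (-0.13) of the Cdkn2a-Cdkn2b window, Cdkn1a (-0.12) and Trp53 (-0.083). FLAG region 12 breadth also turned with the best 50% of peaks (-0.20), at equal lengths (-0.32), with peaks joined (-0.18) and without WT-Tag replicate 1 (-0.061), and its height without WT-Tag replicate 3 (0.0035, with -0.22 at the other end of the range). The breadth call of region 5 was also lost with the best 50% of peaks (0.70, limma adjusted p = 0.0663) and with peaks joined (0.54, adjusted p = 0.106). The height call of region 4 was lost without any of 4 cultures, with log2 changes of 0.38 to 0.66, and the height difference of region 1 passed without WT-Tag replicate 1 (-0.66, limma adjusted p = 0.0459).

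With the replicate number as a block, H3K4me3 breadth calls fell from 1833 to 508, and the calls were 2036 for H3K4me3 height, 4670 for FLAG breadth and 4530 for FLAG height. The block left region 5 breadth at an adjusted p of 0.0591 and region 4 height at 0.0564 by limma. For window values the smallest p of 3 pairs is 0.25, which the separated values reached by an exact sign-flip permutation test. Only some cultures correlated best with their own number.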
